A study of Bos taurus with 12 samples.

Results

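ATF4 and 9 genes tied to it in the integrated stress response were measured in mammary gland (MG) biopsies of early lactation cows 24 h after an intra-mammary challenge with lipopolysaccharide (LPS), a cell wall component of Gram-negative bacteria. The genes were taken by name (ATF4, ASNS, DDIT3, TRIB3, CHAC1, PSAT1, PHGDH, SESN2, EIF2AK3 and PPP1R15A), and a probe was assigned to one of them when its RefSeq accession carried that symbol in the bovine RefSeq gene table. All 10 genes were found, with 20 of the 43653 probes on the array, among 12639 genes that could be named in this way. The array was an Agilent one-colour bovine design, and each of the 12 arrays held RNA of a different cow. All cows were multiparous Holsteins at 24 ± 3 days in milk, and in each of them a healthy rear gland of the udder received 50 µg of LPS on day 3 of the diet period. The 6 control (CONT) cows stayed on a lactation ration offered ad libitum. In the 6 restricted (REST) cows, barley straw replaced part of this feed over 4 days and supplied 48% of its dry matter. Every cow had received LPS, so the comparison is between diets in challenged glands and holds no unchallenged tissue. Cows are called CONT 1 to CONT 6 and REST 1 to REST 6, numbers that only name them.

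The integrated stress response starts when one of several kinases phosphorylates the initiation factor eIF2 on its alpha subunit. General protein synthesis then slows, whereas translation of ATF4, a transcription factor whose mRNA is poorly translated in unstressed cells, increases. ATF4 turns on genes for amino acid synthesis and uptake, for charging of tRNAs and for feedback and cell death, and in secretory tissue such as the MG both amino acid shortage and load on the endoplasmic reticulum feed into this pathway. An array reads mRNA only, so neither eIF2 phosphorylation nor ATF4 protein was measured here. In a biopsy, fewer cells of a type and less mRNA per cell cannot be told apart.

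Values are log2 signals minus the 75th percentile of the same array, so that 0 is the level of the 75th percentile probe and a difference of 1 is a doubling. Levels are compared between cows for 1 probe at a time and never between probes. Where a gene had several probes, the probe with the highest mean over the arrays stood for it. That probe was well above background on all 12 arrays for 8 of the 10 genes. The exceptions were SESN2, well above background in 5 CONT and 6 REST cows, and PPP1R15A, well above background in 5 cows of each group. The 75th percentile intensity lay between 577.1 and 1184 in CONT and between 386.9 and 1082 in REST, and 57.57% to 75.99% of probes in CONT and 63.15% to 78.14% in REST were well above background. All 9 measured markers of milk-secreting epithelium were well above background on every array. The arrays lay on 3 slides, with 3 CONT cows and 1 REST cow on slide 1, 1 CONT cow and 3 REST cows on slide 2, and 2 of each on slide 3, so the difference between diets of each of the 10 genes is also given with slide as a block and within each slide.

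For none of the 10 genes did a difference between REST and CONT pass the test. In limma with Benjamini-Hochberg adjustment over all 43653 probes, 0 probes passed an adjusted p of 0.05, a background of 0%, and each of the 10 genes had an adjusted p of 0.9999. The lowest adjusted p of any probe in this limma fit was 0.78. The study's own moderated test with Westfall-Young adjustment did call genes between the diets, so the count of 0 probes belongs to the fit used here. At an unadjusted p under 0.05 the count was 0 of 10 genes, against 334 of 12639 named genes (2.64%) and 1143 of 43653 probes (2.62%). The 6 REST values lay wholly above or below the 6 CONT values in 0 of 10 genes, against 0.151% of named genes. Of the 10 genes, 5 had a higher and 5 a lower mean in REST, and their median log2 fold change (FC) was 0.0068, beside -0.034 over all named genes. This median was -0.11 with slide as a block (4 higher), -0.15 without REST 5 and 0.13 without CONT 3. A p above the threshold does not show equal levels, and the 95% intervals below give the differences that 6 cows per group leave possible. Exact permutation tests over the 924 ways of dividing the cows, whose smallest possible p is 0.00216, gave p-values between 0.167 and 1 for the 10 genes.

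**Figure D1:**
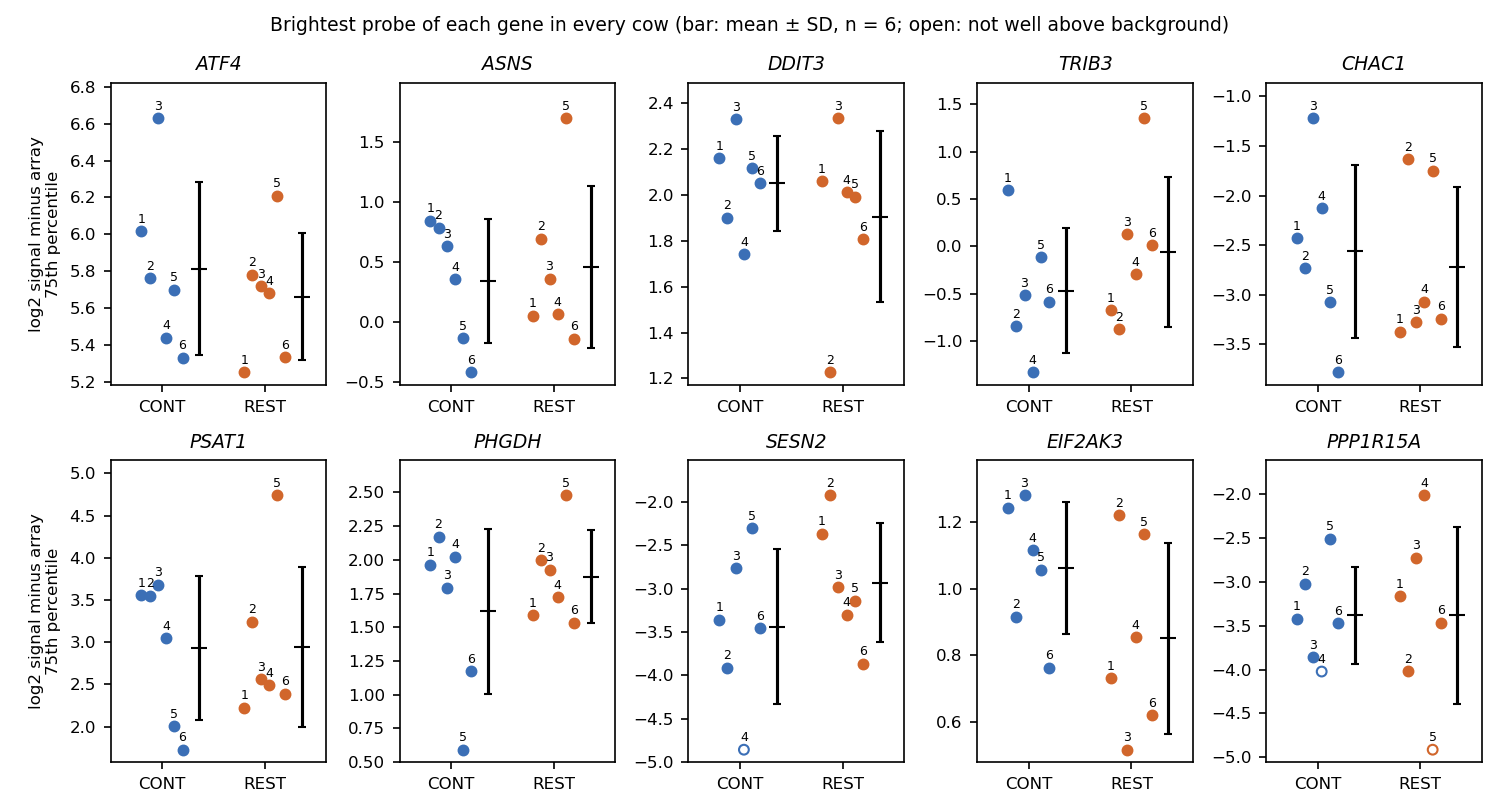
Log2 signal minus the array's 75th percentile (vertical axis, separate scale in each panel) of the brightest probe of each gene in 6 CONT and 6 REST cows. Each point is a cow with its number, open points were not well above background, and bars show the mean ± SD (n = 6). The groups overlap in every panel, and REST 5 is the highest REST cow for ATF4, ASNS, TRIB3, PSAT1 and PHGDH.

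EIF2AK3 encodes PERK, the kinase of the endoplasmic reticulum membrane that phosphorylates eIF2 when unfolded proteins accumulate. Its values ran from 0.76 in CONT 6 through a median of 1.09 to 1.28 in CONT 3, and in REST from 0.52 in REST 3 through 0.79 to 1.22 in REST 2. The 4 other REST cows were spread between these ends and the groups overlapped. EIF2AK3 averaged 1.06 ± 0.20 under the CONT ration against 0.85 ± 0.29 in REST cows (SD, n = 6 each), and the log2 FC was -0.21 (SE 0.17, 95% interval -0.57 to 0.15, exact permutation p = 0.167). With slide as a block the log2 FC was -0.32, and within slides it was -0.30, -0.16 and -0.45. The EIF2AK3 difference was thus below 0 on each slide, but it depended on the probe: the 2 dimmer probes gave 0.094 and 0.075.

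ATF4 itself ran from 5.33 in CONT 6 through a median of 5.73 to 6.63 in CONT 3, and from 5.25 in REST 1 through 5.70 to 6.21 in REST 5. CONT 3 and REST 5 were the highest cows of their groups, and the remaining 10 cows overlapped closely. The log2 FC of ATF4 was -0.15 (SE 0.24, 95% interval -0.67 to 0.36, exact permutation p = 0.556). Without CONT 3 it was 0.012. With slide as a block it was -0.33, and within the 3 slides -0.38, -0.13 and -0.45. The 2 dimmer ATF4 probes gave log2 FCs of -0.033 and 0.095.

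DDIT3 encodes CHOP, a transcription factor that ATF4 induces and that is known for its part in cell death under lasting stress. CONT cows lay between 1.74 and 2.33 with a median of 2.08, and REST cows between 1.23 and 2.33 with a median of 2.002. REST 2 was the lowest cow, and the next lowest REST cow was at 1.81. The log2 FC of DDIT3 was -0.15 (SE 0.19, 95% interval -0.56 to 0.27, exact permutation p = 0.472) and moved to -0.0095 without REST 2. Slide as a block gave -0.13, and the within-slide values were 0.14, -0.42 and -0.12. The second DDIT3 probe gave -0.035.

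PPP1R15A encodes GADD34, the regulatory subunit that brings a phosphatase to eIF2 and so closes the feedback loop. Its signal ran from -4.02 through a median of -3.44 to -2.50 in CONT and from -4.91 through -3.31 to -2.01 in REST, and the lowest cow of each group (CONT 4 and REST 5) was not well above background. REST spanned the whole CONT range. The difference between the PPP1R15A means was -0.00028 (SE 0.43, 95% interval -0.94 to 0.94, exact permutation p = 1). Slide as a block gave 0.17, the within-slide values were 0.021, -0.23 and 0.57, and the log2 FC was 0.31 without REST 5.

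The amino acid synthesis genes varied widely from cow to cow in both groups. ASNS, which makes asparagine, ran from -0.42 in CONT 6 through a median of 0.49 to 0.85 in CONT 1, and from -0.14 in REST 6 through 0.21 to 1.70 in REST 5. REST 5 was the only REST cow above the highest CONT cow. The log2 FC of ASNS was 0.11 (SE 0.33, 95% interval -0.60 to 0.83, exact permutation p = 0.760). It was -0.14 without REST 5 and -0.041 without CONT 6. Slide as a block gave -0.090, and the within-slide values were -0.28, -0.024 and 0.0053.

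PSAT1, the transaminase of serine synthesis, ran from 1.73 in CONT 6 through a median of 3.30 to 3.68 in CONT 3, and from 2.22 in REST 1 through 2.53 to 4.74 in REST 5. In CONT, cows 5 and 6 lay at 2.01 and 1.73 and the other 4 cows at 3.05 or above. In REST, only cows 2 and 5 exceeded 3. The PSAT1 means were 2.93 ± 0.86 and 2.94 ± 0.95 (SD, n = 6 each), a log2 FC of 0.014 (SE 0.48, 95% interval -1.02 to 1.05, exact permutation p = 0.978). The log2 FC was -0.35 without REST 5 and 0.16 without CONT 3. With slide as a block it was -0.30, and within slides it was -0.64, -0.067 and -0.23.

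PHGDH catalyses the first step of serine synthesis. CONT cows ran from 0.59 in CONT 5 through a median of 1.88 to 2.17 in CONT 2, and REST cows from 1.53 in REST 6 through 1.83 to 2.48 in REST 5. CONT 5 and CONT 6 were the lowest cows of the 12. The log2 FC of PHGDH was 0.26 (SE 0.28, 95% interval -0.35 to 0.86, exact permutation p = 0.413) and fell to 0.050 without CONT 5. Slide as a block gave 0.13, and the within-slide values were -0.0051, 0.10 and 0.25.

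The remaining 3 genes are induced by ATF4 and act on other steps. TRIB3, a pseudokinase that binds ATF4 and CHOP, ran from -1.33 in CONT 4 through a median of -0.55 to 0.59 in CONT 1, and from -0.87 in REST 2 through -0.14 to 1.35 in REST 5. Only REST 5 exceeded CONT 1. The log2 FC of TRIB3 was 0.41 (SE 0.39, 95% interval -0.44 to 1.25, exact permutation p = 0.368) and 0.13 without REST 5. It was 0.12 with slide as a block and 0.089, -0.53 and 0.62 within slides, so its sign differed between slides.

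CHAC1, an enzyme that degrades glutathione, ran from -3.78 in CONT 6 through a median of -2.58 to -1.22 in CONT 3, and from -3.37 in REST 1 through -3.15 to -1.63 in REST 2. In REST, cows 2 and 5 lay at -1.63 and -1.75 and the other 4 cows between -3.37 and -3.07. The log2 FC of CHAC1 was -0.16 (SE 0.45, 95% interval -1.13 to 0.80, exact permutation p = 0.729) and 0.11 without CONT 3. Slide as a block gave -0.44, and the within-slide values were -0.73, 0.28 and -0.76.

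SESN2, a leucine sensor that restrains the growth kinase complex mTORC1, ran from -4.86 in CONT 4, where it was not well above background, through a median of -3.41 to -2.30 in CONT 5. REST cows ran from -3.87 in REST 6 through -3.06 to -1.92 in REST 2, and the groups overlapped. SESN2 had a log2 FC of 0.51 (SE 0.43, 95% interval -0.41 to 1.43, exact permutation p = 0.301). It was 0.23 without CONT 4, 0.13 with normexp background correction and 0.44 with slide as a block. Within slides it was 1.32, 0.57 and -0.31.

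**Figure D2:**
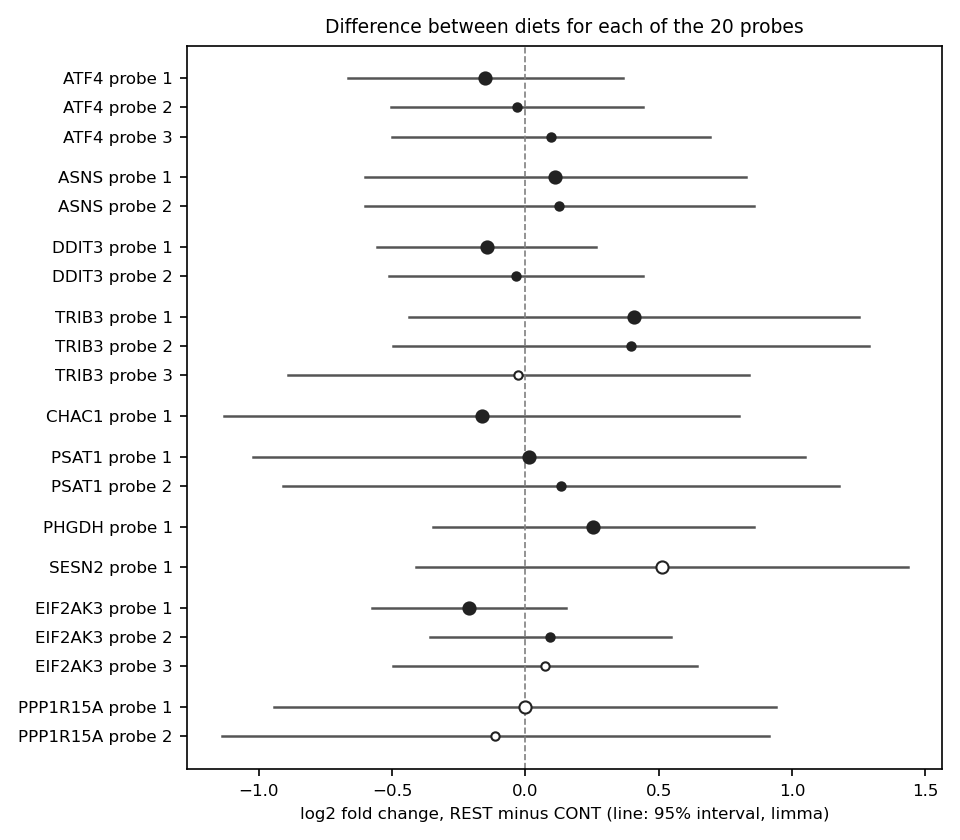
Log2 FC, REST minus CONT (horizontal axis), with its 95% interval from limma for each of the 20 probes; large points mark the brightest probe of a gene and open points mark probes not well above background on all 12 arrays. All 20 intervals include 0, and the brightest EIF2AK3 probe has the narrowest, from -0.57 to 0.15.

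Several of the genes had several probes, which allowed a check of the cow-to-cow differences. The 2 ASNS probes correlated over the 12 cows with r = 0.97, the 2 brighter TRIB3 probes with r = 0.98, the 2 PSAT1 probes with r = 0.96 and the 3 ATF4 probes with r between 0.87 and 0.92. Agreement was lower for DDIT3 (r = 0.72) and for the 2 brighter EIF2AK3 probes (r = 0.57). The dimmest TRIB3 probe, which was well above background in 2 CONT and 3 REST cows, followed the others with r = 0.14 and 0.12.

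The spread between cows of the same diet differed between the genes. The within-group SD was 0.90 for PSAT1, 0.84 for CHAC1, 0.73 for TRIB3 and 0.60 for ASNS, which was larger than that of 94.2%, 92.9%, 89% and 81.8% of the 9001 named genes well above background on all arrays. The median SD of those genes was 0.33. ATF4 had an SD of 0.41, above 62.9% of the genes, whereas DDIT3 (0.30) and EIF2AK3 (0.25) lay above 42.8% and 28.7%. Between the lowest and the highest cow, PSAT1 differed 8.08-fold, TRIB3 6.41-fold, CHAC1 5.91-fold, ASNS 4.37-fold, ATF4 2.60-fold and EIF2AK3 1.70-fold. PPP1R15A and SESN2 also had wide spreads (SD 0.82 and 0.80), and both include arrays on which the probe was not well above background.

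**Figure D3:**
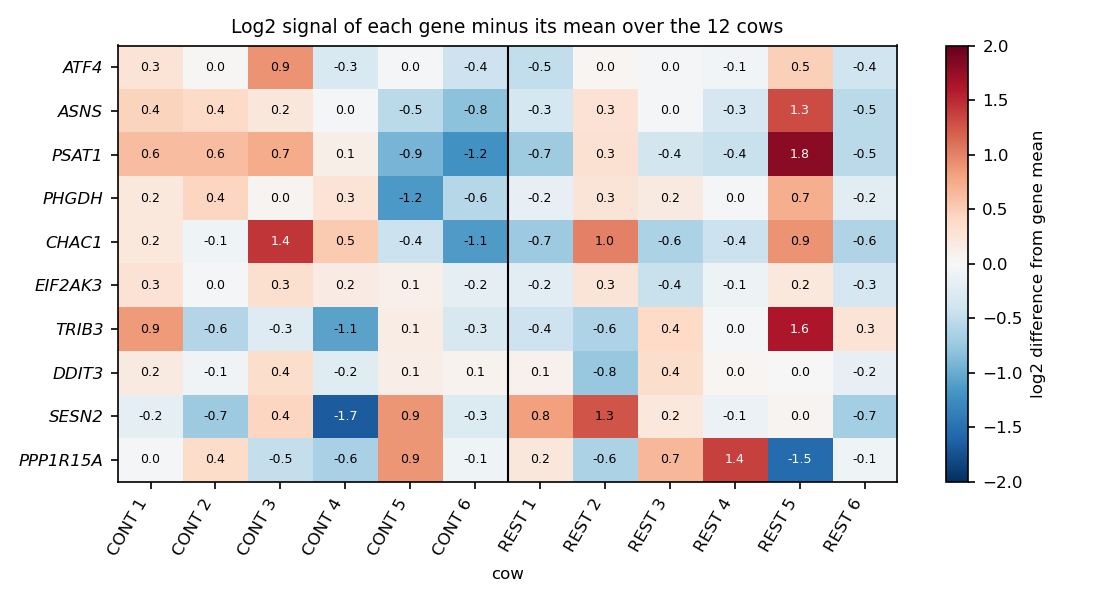
Difference of each gene's log2 signal from its mean over the 12 cows (colour and printed value, brightest probe), with 6 CONT cows left and 6 REST cows right of the black line. ASNS, PSAT1 and PHGDH are above their means in REST 5 and below them in CONT 5 and CONT 6, and PPP1R15A is at its lowest in REST 5.

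These differences between cows were shared by part of the genes. Among the 8 genes well above background on all arrays, 28 pairs were compared over the 12 cows by Pearson's r with permutation p-values adjusted over the 28 pairs. In 10 pairs the adjusted permutation p was under 0.05, and r was positive in each of them. Adjusted over all 45 pairs of the 10 genes, 8 passed, and ATF4 with ASNS and ATF4 with EIF2AK3 did not (adjusted permutation p = 0.069 each). By Spearman's rho 11 pairs passed. The median r over the 28 pairs was 0.45, and 8 pairs had an r of at least 0.7. Over all 40504500 pairs of the 9001 named genes the median r was 0.0065 and 4.62% had an r of at least 0.7. The points share array, slide and scaling. Each slide held 4 cows, too few for a correlation within it, so diet and slide means were removed instead, and 2 of the 10 pairs then kept an adjusted permutation p under 0.05. In the 8 pairs that did not, r was between 0.67 and 0.82 after the removal, beside 0.67 to 0.81 before it. Without CONT 6, 5 of the 28 pairs passed.

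The closest pair was ASNS and PSAT1, with r = 0.97 (permutation p = 1e-05, adjusted 0.00028, the smallest these permutations can give) and rho = 0.93 (permutation p = 3e-05) over 12 cows. Each was the other's nearest gene: of the 9000 other named genes, 0 had a higher r with ASNS and 0 a higher r with PSAT1. The correlation did not rest on single cows, since r was 0.93 without CONT 6 and REST 5, the cows farthest from the ASNS median, and between 0.95 and 0.98 when any 1 cow was left out. It was 0.97 after diet and slide means were removed (adjusted permutation p = 0.0011), and 0.89 to 0.97 over the 4 combinations of ASNS and PSAT1 probes. PHGDH followed both, with r = 0.81 with PSAT1 (rho 0.83, adjusted permutation p = 0.011) and r = 0.81 with ASNS (rho 0.87, adjusted permutation p = 0.011). Without CONT 6 and REST 5 these values were 0.72 and 0.73. With diet and slide means removed they were 0.82 and 0.79 and had adjusted permutation p-values of 0.070 and 0.076.

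CHAC1 and EIF2AK3 formed the second pair that passed in both ways, with r = 0.84 (rho 0.87, permutation p = 0.0011, adjusted 0.011) and r = 0.93 once diet and slide means were removed (adjusted permutation p = 0.0063). Without CONT 3 and REST 2, the cows farthest from the CHAC1 median, r was 0.77. It was 0.70 with the second EIF2AK3 probe. With normexp background correction r was 0.60 and no longer passed. CHAC1 also correlated with PSAT1 (r = 0.81, rho 0.84, adjusted permutation p = 0.011, r = 0.89 without CONT 3 and REST 2) and with ASNS (r = 0.73, rho 0.72, adjusted permutation p = 0.020, r = 0.65 without CONT 6 and REST 5). ASNS and CHAC1 lost the call without CONT 6 (r = 0.66), as did ASNS and PHGDH (r = 0.78).

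ATF4 mRNA correlated with CHAC1 (r = 0.78, rho 0.80, adjusted permutation p = 0.011), PSAT1 (r = 0.74, rho 0.87, adjusted permutation p = 0.020), ASNS (r = 0.69, rho 0.84, adjusted permutation p = 0.043) and EIF2AK3 (r = 0.67, rho 0.75, adjusted permutation p = 0.043). Leaving out CONT 3 and REST 5, the cows farthest from the ATF4 median, gave r = 0.51 with CHAC1, 0.66 with PSAT1, 0.74 with ASNS and 0.55 with EIF2AK3. The relation with CHAC1 did not pass without CONT 3 (r = 0.65), that with PSAT1 did not pass without CONT 6 (r = 0.71), and those with ASNS and EIF2AK3 each failed in 9 of the 12 fits that left out 1 cow. All 4 failed with quantile normalization (r between 0.53 and 0.58) and with normexp background correction (r between 0.54 and 0.67). Over all combinations of probes well above background on the 12 arrays, r ran from 0.78 to 0.91 with CHAC1, from 0.74 to 0.94 with PSAT1, from 0.61 to 0.85 with ASNS and from 0.50 to 0.74 with EIF2AK3. ATF4 and PHGDH correlated with r = 0.38 (rho 0.58, permutation p = 0.2195, adjusted 0.341), and with r up to 0.65 over the 3 ATF4 probes.

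DDIT3 and TRIB3, both textbook targets of ATF4, were in none of the 10 pairs. DDIT3 had an r of 0.30 with ATF4 (rho 0.20, permutation p = 0.329), which was 0.034 without CONT 3 and REST 5, 0.43 with normexp background correction and 0.50 with quantile normalization, and an r of -0.083 with both ASNS and PSAT1. TRIB3 had an r of 0.49 with ASNS (rho 0.20, permutation p = 0.110), which was -0.022 without REST 5. PPP1R15A ran opposite to PSAT1 (r = -0.66, rho -0.47), CHAC1 (r = -0.65, rho -0.54) and ASNS (r = -0.62, rho -0.31), with unadjusted permutation p-values of 0.020, 0.022 and 0.033 and adjusted ones of 0.081, 0.083 and 0.107 over all 45 pairs of the 10 genes. These values include the 2 arrays on which PPP1R15A was not well above background. Without REST 5 they were -0.43, -0.58 and -0.32, and with normexp background correction -0.066, 0.27 and -0.025.

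**Figure D4:**
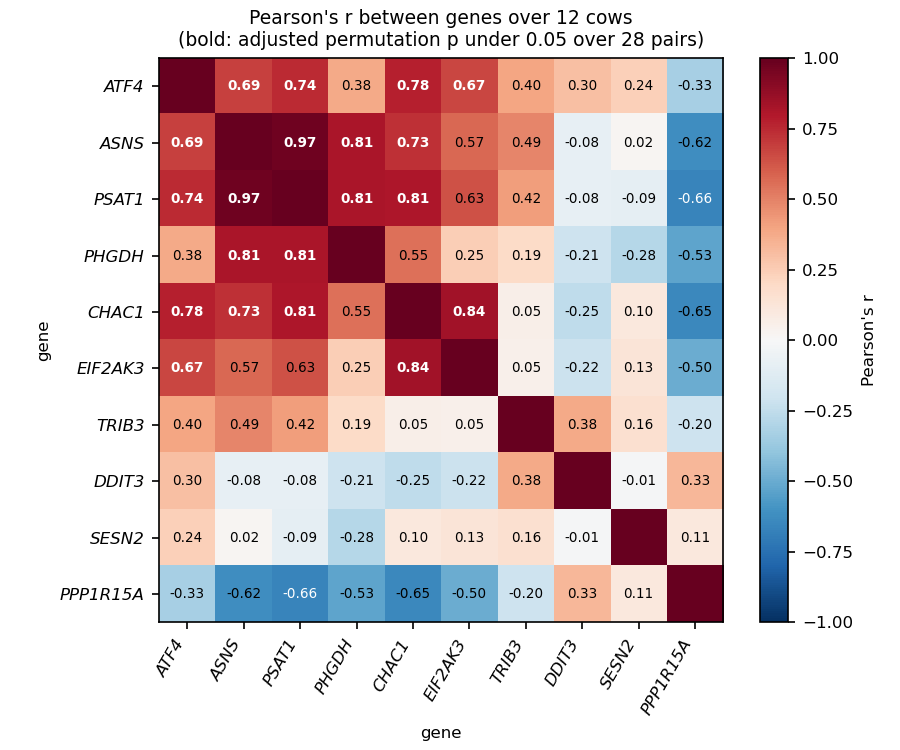
Pearson's r between the brightest probes of each pair of the 10 genes over 12 cows (colour and printed value), bold where the permutation p adjusted over 28 pairs is under 0.05. ATF4, ASNS, PSAT1, PHGDH, CHAC1 and EIF2AK3 hold all 10 bold pairs, and the row of PPP1R15A is negative with each of these 6 genes.

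The mean of the 8 centred genes gave a pattern over the cows that was highest in REST 5 (0.88), CONT 3 (0.47) and CONT 1 (0.39) and lowest in CONT 6 (-0.57), REST 1 (-0.37) and CONT 5 (-0.34). High and low cows thus occurred under both diets. Of 8993 other named genes well above background on all arrays, 357 (3.97%) had an r of at least 0.7 with it, and 422 did so with diet and slide means removed and 258 without REST 5. The 5 most alike were SLC7A5 (r = 0.94), COLEC12 (r = 0.91), SLC1A4 (r = 0.91), FITM2 (r = 0.91) and GANAB (r = 0.90). SLC7A5 carries leucine and other large neutral amino acids, SLC1A4 carries alanine, serine and cysteine, and GANAB trims glycans of new proteins in the endoplasmic reticulum. COLEC12 is a scavenger receptor of the collectin family and FITM2 acts in lipid droplet formation. Without REST 5 these values were between 0.83 and 0.90, and with diet and slide means removed between 0.90 and 0.96. They describe likeness over 12 cows that share arrays and scaling.

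Other genes of the pathway were set beside this pattern by list, and the lists differed. Among amino acid transporters controlled by ATF4, 3 of 7 had an r of at least 0.7 (median 0.68). They were SLC7A5, SLC1A4 and the glutamine carrier SLC1A5 (r = 0.82), whereas SLC3A2, the partner chain of SLC7A5 at the membrane, had an r of -0.061. In serine, one-carbon, proline and sulphur amino acid synthesis it was 4 of 11 (median 0.34), and 3 of 11 without REST 5 (median 0.15). These were PYCR1 (r = 0.90) and ALDH18A1 (r = 0.84) of proline synthesis, CBS (r = 0.83) of cysteine synthesis and PSPH (r = 0.78, 0.57 without REST 5), the last enzyme of serine synthesis. Among the cytosolic tRNA synthetases, which load amino acids onto tRNAs, it was 4 of 19 (median 0.52), namely AARS1 (r = 0.87), GARS1 (r = 0.86), EPRS1 (r = 0.85) and TARS1 (r = 0.79), and 8 of 19 with diet and slide means removed.

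Among other transcription factors and stress targets downstream of ATF4 the count was 2 of 11 (median 0.34), CEBPB (r = 0.72) and VEGFA (r = 0.71), and it was 0 without REST 5. TXNIP, a thioredoxin inhibitor, had an r of -0.65. In the ATF6 and IRE1-XBP1 branches of the unfolded protein response, which run beside PERK, the count was 2 of 22 (median 0.36), 5 with diet and slide means removed and 4 without REST 5. They were SERP1 (r = 0.77) and SYVN1 (r = 0.71), and the chaperone HSPA5 had an r of 0.19. None of the 11 measured genes in the list of eIF2 kinases and factors reached 0.7 (median -0.022), against 1 with diet and slide means removed, EIF2B3 (r = 0.73). The phosphatase subunit PPP1R15B of this list was not measured. Of 4 paralogues of the genes 0 reached 0.7, with CHAC2 at 0.63, TRIB2 at -0.31, SESN1 at -0.52 and TRIB1 at -0.65 (rho -0.83).

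**Figure D5:**
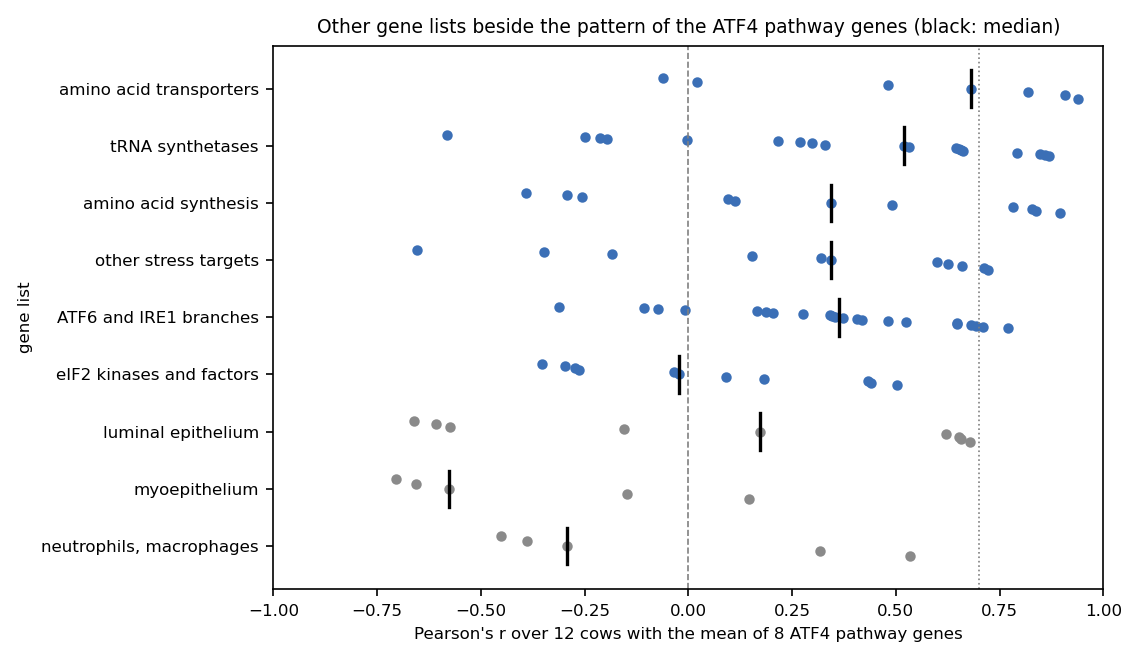
Pearson's r over 12 cows (horizontal axis) of each gene with the mean of the 8 ATF4 pathway genes, for 6 pathway lists (blue) and 3 cell type marker lists (grey); black bars are medians and the dotted line marks 0.7. The medians are 0.68 for transporters and -0.022 for eIF2 kinases and factors, and in the 3 marker lists no gene reaches 0.7.

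Markers of some cell types and the brightness of the arrays moved with the same pattern. None of the genes in the 9 marker lists that were well above background on all arrays reached an r of 0.7, whereas the endothelial genes KDR (r = 0.75) and TEK (r = 0.73) did with diet and slide means removed. The mean of 6 myoepithelial markers correlated with it at r = -0.55 and ran from 1.32 to 3.04 in CONT and from 1.41 to 2.84 in REST, with REST 5 the lowest REST cow. Its genes split, with the keratins KRT17, KRT5 and KRT14 at -0.71, -0.66 and -0.58 and the contractile genes ACTA2 and MYLK at -0.15 and 0.15. The mean of 5 endothelial markers had an r of 0.55 (from -1.68 to 0.52 in CONT and from -0.11 to 0.91 in REST), and that of 6 fibroblast markers -0.41 (from 2.45 to 2.82 in CONT and from 1.35 to 3.02 in REST), which was -0.23 both without REST 5 and with diet and slide means removed. The mean of 9 luminal markers had an r of 0.19 (from 5.14 to 5.66 in CONT and from 5.21 to 5.89 in REST), but its genes split: the milk protein genes CSN1S1 (r = 0.68), CSN3 (r = 0.66) and LALBA (r = 0.62) and the secretory regulator ELF5 (r = 0.65) ran with the pattern, whereas CDH1 (r = -0.66), KRT18 (r = -0.61) and KRT8 (r = -0.57) ran against it. The mean of 6 neutrophil and macrophage markers had an r of -0.10 (from -0.91 to 0.32 in CONT and from -0.88 to 0.45 in REST) and of 0.17 without REST 5. The mean of 6 lymphocyte markers had an r of 0.28, and of 0.019 without REST 5. These means include TP63, ITGAM and MS4A1 of the myoepithelial, the neutrophil and macrophage and the lymphocyte lists, which were not well above background on all 12 arrays. In the other 3 lists, probes well above background on all 12 arrays had an r of 0.60 for HBA of erythroid cells. The median r was 0.46 over 3 skeletal muscle markers (MYH7 0.53, CKM 0.46 and ACTA1 -0.41) and 0.53 over 2 adipocyte markers. The means of all 3 erythroid, 5 skeletal muscle and 5 adipocyte markers, dim probes included, had an r of 0.093, 0.062 and 0.36. The lymphocyte genes split as well, with CD79A at 0.54, JCHAIN at 0.52 and CD3E at -0.70 (rho -0.79). The 75th percentile intensity of the array correlated with the pattern at r = -0.61 (rho -0.69), at -0.49 with diet and slide means removed and at -0.59 under quantile normalization. The part of cell composition and array brightness in the shared pattern was not tested.

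The lists were also set beside the diets, again with 0 genes past an adjusted p of 0.05 in limma. Over all named genes, 5500 of 12639 were higher in REST. Of 12 measured stress targets downstream of ATF4, 9 were higher and 3 lower (median log2 FC 0.10), and SQSTM1, an autophagy receptor, had a log2 FC of 0.69 (SE 0.26, unadjusted p = 0.022 and adjusted p = 0.9999 in limma). This was the only gene of that list with an unadjusted p under 0.05, against 1.63% of named genes higher in REST. VLDLR had a log2 FC of -0.35 and TXNIP of 0.27. With slide as a block 7 of the 12 were higher (median 0.072), and SQSTM1, VLDLR and TXNIP were at 0.76, -0.52 and 0.35. Of 9 amino acid transporters, 6 were higher and 3 lower (median 0.052), with SLC6A9 at 0.40, SLC1A5 at 0.28, SLC7A5 at 0.13, SLC1A4 at 0.072 and SLC38A2 at 0.052. Slide as a block turned this count to 3 higher and 6 lower (median -0.078), with SLC6A9 at 0.20, SLC1A5 at -0.076, SLC7A5 at -0.56, SLC1A4 at -0.19 and SLC38A2 at -0.087.

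The tRNA synthetases were mostly lower, 16 of 19 (median -0.092). Among them LARS1, the leucyl-tRNA synthetase, had a log2 FC of -0.36 (SE 0.14, unadjusted p = 0.023 and adjusted p = 0.9999 in limma), FARSB of -0.25 and YARS1 of -0.36. The share of named genes lower in REST at an unadjusted p under 0.05 was 1.01%. In the ATF6 and IRE1-XBP1 branches 19 of 23 genes were lower (median -0.14), with 0 at an unadjusted p under 0.05, and DNAJB11, HYOU1 and CANX, which help proteins fold, had log2 FCs of -0.49, -0.29 and -0.20. With slide as a block 17 of 19 synthetases and 19 of 23 genes of these branches were lower, with LARS1 at -0.32, FARSB at -0.22, YARS1 at -0.27, DNAJB11 at -0.39, HYOU1 at -0.22 and CANX at -0.17. Of 11 eIF2 kinases and factors 9 were lower (median -0.095), among them EIF2S2 (-0.31), EIF2B1 (-0.25) and EIF2S1 (-0.16), and 6 of 11 with slide as a block (median -0.038; -0.32, -0.18 and -0.11 for these genes). Of 15 amino acid synthesis genes 10 were lower (median -0.029), with MTHFD1 at -0.34 and GOT1 at -0.24, and again 10 with slide as a block (median -0.14), with MTHFD1 at -0.33 and GOT1 at -0.14. Of the 4 paralogues 3 were higher (median 0.018), with SESN1 at 0.25, TRIB2 at 0.034 and TRIB1 at -0.084, which slide as a block turned to 0.22. The study lists TRIB2 among its differentially expressed genes, as higher in REST. The value here is that of the brightest TRIB2 probe only. In the 9 cell type marker lists 0 genes passed the adjusted test in limma. Of 6 fibroblast markers 5 were lower in REST, 3 of them at an unadjusted p under 0.05 in limma (LUM -0.84, COL1A1 -0.72 and COL1A2 -0.65), and with slide as a block these were at -0.83, -0.39 and -0.45. All 5 endothelial markers were higher (VWF 0.79, unadjusted p = 0.023 in limma, 0.90 with slide as a block). Of 9 luminal markers 7 were higher (median 0.19). Of 6 lymphocyte markers 4 were higher (median 0.14). Among these, CD3D had a log2 FC of 0.60 (unadjusted p = 0.040 in limma) and CD3E of -0.093, and MS4A1 (unadjusted p = 0.025 in limma) was well above background in 0 CONT and 4 REST cows. Of 5 skeletal muscle markers 3 were lower (median -0.087), with TNNT3 at 1.12 (unadjusted p = 0.017 in limma, well above background in 4 CONT and 6 REST cows), ACTA1 at -0.25 and CKM at -0.087. MYH1, well above background in 4 CONT and 0 REST cows, was at -0.97 (-0.24 with slide as a block). Of 5 adipocyte markers 4 were higher (median 0.25), and 3 with slide as a block (median 0.039), with FABP4 at 1.205 (unadjusted p = 0.073 in limma). LEP, well above background in 4 CONT cows and 1 REST cow, was at -1.02 (-0.39 with slide as a block). Among 6 myoepithelial markers 4 were lower (median -0.096), as were 4 of 6 neutrophil and macrophage markers (median -0.12) and 2 of 3 erythroid markers (median -0.13), with 0 at an unadjusted p under 0.05 in limma in these 3 lists. With slide as a block, 3 of 6, 3 of 6 and 1 of 3 of these markers were lower (medians 0.0088, -0.093 and 0.0040). The part of these markers in the list counts was not tested.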

How the data were processed

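Total RNA (100 ng) from about 50 mg of mammary tissue of each of 12 cows was hybridised to 12 one-colour Agilent bovine arrays, whose annotation uses the UMD_3.1 build. The authors deposited 1 Agilent Feature Extraction 11.0.1.1 file per array, with spot intensity after background subtraction (gProcessedSignal). They also deposited a table of spot intensities, whose values equal gProcessedSignal in the files (largest difference 0). Per the labels the groups are diets, 6 cows each, and each sample is a different cow. The study's methods kept these cows for RNA quality.

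Of 45220 spots, 43803 were not controls; spots flagged as outliers were left out, spots of 1 probe were averaged (43653 probes, 205 with a missing value), and log2 intensities were shifted by each array's 75th percentile. In all, 26832 probes were named by RefSeq accession; the RefSeq table is of another build, so no coordinates are given, and no sequences were analysed here. The number of arrays limits the precision. limma 3.58.1 (R 4.3.3) was fitted to all probes without covariates, with Benjamini-Hochberg adjustment; the methods' Westfall-Young adjustment was not run, and Holm adjustment was an alternative. Correlations used Python 3.11.15 and 100000 permutations. Scripts were tested on simulated data. Genes named were the 10 genes with every probe, the 3 genes of each other pathway list with the lowest unadjusted p among those well above background on all 12 arrays, and the 5 genes most like the mean pattern (1 gene that the rule picked is not reported here); genes with an r of at least 0.7, SLC3A2, CHAC2, TXNIP, HSPA5, EIF2B3, the diet values of SLC7A5 and SLC1A4, and single cell type markers were named after their values were seen. The genes and lists were chosen with earlier results of these data known. Alternatives were quantile normalization, normexp (offset 50), the deposited table, a filter on dim probes, outlier spots kept, slide as a block, an intensity trend, means over probes and leaving out each cow; leaving out cows in the correlations, all probe combinations, the pattern without REST 5 and with diet and slide means removed, and list counts with slide as a block were added after seeing the data.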

Additional observations from a re-analysis of the deposited data

How the results depend on the processing

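The counts of 0 probes called, 0 of the 10 genes called, 0 with an unadjusted p under 0.05 and 0 without overlap held in each of the 10 other settings and each of the 12 fits that left out 1 cow. Among these settings, the deposited table holds the same values and Holm is a stricter adjustment of the same fit. Neither could change these counts or the log2 FCs. The filter on dim probes tested 9 of the 10 genes and the mean over bright probes 8. With slide as a block the amino acid transporters went from 6 of 9 higher to 3 of 9. The median log2 FC over all probes stayed between -0.048 and 0.048. Of 97 single gene values in other settings, 4 changed sign: PSAT1 (-0.024) with normexp, and ASNS (-0.090), PSAT1 (-0.30) and PPP1R15A (0.17) with slide as a block. Leaving out 1 cow gave log2 FCs from -0.26 to 0.012 for ATF4, -0.14 to 0.23 for ASNS, -0.41 to 0.11 for CHAC1, -0.35 to 0.16 for PSAT1 and -0.27 to 0.31 for PPP1R15A. The count of 10 correlated pairs was 2 with diet and slide means removed (r of the other 8 pairs then lay between 0.67 and 0.82), 5 with normexp, 6 with quantile normalization, and from 5 (without CONT 6) to 10 when 1 cow was left out; the cause was not tested. Dim signal limits SESN2 and PPP1R15A, which were not well above background in some cows. No paired analysis was made, since each sample is a different cow on 1 diet and the labels pair no cows across diets.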
